A study of Mus musculus with 65 samples.

Results

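Lin28a, Lin28b, Hmga2 and Igf2bp1, which encode RNA-binding and chromatin proteins of early development, and 5 long non-coding RNA genes, Mir100hg, Miat, C130071C03Rik, Mir9-3hg and Mir124a-1hg, were followed through the differentiation of mouse embryonic stem (ES) cells into ventral spinal cord progenitors. They were 9 of the 25239 genes of the deposited table, selected by name on their measured levels across days 3 to 6 within each cell type, so their values by day are given as a description, without a test. The differences between cell types and between concentrations of the Shh agonist SAG, which that selection does not name, were tested. The genes were chosen with earlier results of these data known, so independence of these tests from the choice is not shown. All libraries came from HM1, 1 wild-type mouse ES cell line, differentiated in culture. Day 3 neuromesodermal progenitors (NMP), which had received bFGF, LGK, CHIR99021, SB-431542 and DMH1 but no SAG, gave 3 libraries. From day 3 all other cells received 100 nM retinoic acid with 0, 10, 100 or 500 nM SAG, and were fixed, stained and sorted by intracellular transcription factors into p3 (15 libraries, 100 and 500 nM), pMN (15 libraries, 100 and 500 nM), p2 (15 libraries, 10 and 100 nM) and p0-1 (17 libraries, 0 and 10 nM) on days 4, 5 and 6. The 65 libraries formed 25 groups of day, concentration and cell type, and each value below is a normalised read count, the reads of a gene divided by 1 size factor per library.

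LIN28A and LIN28B bind the precursors of let-7 microRNAs and block their maturation, and mature let-7 in turn represses both genes and other mRNAs with let-7 sites, among them Hmga2 and Igf2bp1. HMGA2 is a DNA-bending chromatin protein of proliferating embryonic cells and IGF2BP1 an RNA-binding protein that stabilises its target mRNAs. Mir100hg is the host transcript of miR-100, let-7a-2 and miR-125b-1, C130071C03Rik of Mir9-2, Mir9-3hg of Mir9-3 and Mir124a-1hg of Mir124a-1. Of these products, miR-9 acts in neural progenitors, miR-124 is abundant in neurons, and miR-125 and let-7 accumulate as development proceeds. Miat is a nuclear long non-coding RNA of the developing nervous system. The libraries measured polyadenylated host RNA, not mature microRNAs.

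The mature microRNAs are shown because their shared seeds, bases 2 to 8 in capitals, connect the hosts with the protein-coding genes. Sequences were those of RefSeq on GRCm38.p6, the assembly of mm10. let-7a-5p was listed there under Mirlet7a-1, and no miR-124 entry was listed.
mmu-miR-100-5p: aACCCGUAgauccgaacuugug
mmu-miR-125b-5p: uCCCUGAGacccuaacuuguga
mmu-let-7a-5p: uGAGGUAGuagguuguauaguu
mmu-miR-9-5p: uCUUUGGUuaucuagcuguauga
mmu-miR-9-3p: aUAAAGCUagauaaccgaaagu
The Mir9-2 and Mir9-3 hairpins gave the same pair of mature sequences, so C130071C03Rik and Mir9-3hg host identical products. The 8 let-7 microRNAs with a 5p entry shared 1 seed.

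The let-7 site CTACCTC, the reverse complement of that seed, was searched on the transcript strand in the longest annotated 3′ UTR (GENCODE M21) of each protein-coding gene. It occurred 2 times in Lin28a, 4 times in Lin28b, 4 times in Hmga2 and 4 times in Igf2bp1. Of 3′ UTRs of 0.8 to 1.25 times the same length, 14.7% held it at least once for Lin28a, 24.4% for Lin28b, 16.1% for Hmga2 and 34.4% for Igf2bp1. The miR-9-5p site ACCAAAG occurred 4 times in Lin28b and 1 time each in Lin28a and Hmga2, against 33.7%, 23.1% and 25.7% of such 3′ UTRs, and was not found in that of Igf2bp1. The miR-125b-5p site CTCAGGG occurred 1 time each in Lin28a and Lin28b, against 24.7% and 32.5%, and the miR-100-5p site TACGGGT in none of the 4. A match of letters is a description and not a measured site of binding. The let-7 sites of Lin28a and the one nearest the stop codon in each of the other 3 genes are shown with the 15 bases before them, the site in capitals and its mm10 position, all on the minus strand.
Lin28a, chr4:134005190-134005196: gcacagcctgttgaaCTACCTC
Lin28a, chr4:134004552-134004558: gagatcgccacaaacCTACCTC
Lin28b, chr10:45381023-45381029: acccgggcgggaagtCTACCTC
Hmga2, chr10:120364225-120364231: gccgacattcaatttCTACCTC
Igf2bp1, chr11:95961779-95961785: gctgtgcgaagtaaaCTACCTC

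In the deposited mm10 annotation Lin28a lies at chr4:134003330-134018816, Lin28b at chr10:45376619-45470201, Hmga2 at chr10:120361268-120476469, Igf2bp1 at chr11:95957164-96005944 and Miat at chr5:112213228-112228948, all on the minus strand. The 4 hosts are on the plus strand, Mir100hg at chr9:41376526-41615183, C130071C03Rik at chr13:83721381-83741308, Mir9-3hg at chr7:79500026-79534403 and Mir124a-1hg at chr14:64588115-64593961. The Mir9-2 and Mir124a-1 hairpins lie inside exons of their hosts, and those of Mir100, Mirlet7a-2, Mir125b-1 and Mir9-3 inside introns. Exons of C130071C03Rik and Mir124a-1hg share 56 and 59 bases with opposite-strand genes, Gm51268 and Gm51272, and whether strand was used in counting is not stated. Those genes had 0 reads in all 65 libraries.

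Totals ran from 7615114 to 13484815 reads per library, and a single read was worth 0.717 to 1.36 normalised reads. The p3 library of day 4 at 100 nM SAG, the only one of its group, stood apart with reads in 9718 genes, against 10338 to 15963 in the others. Medians of the sorting genes followed the labels, with overlap between cell types for Olig2. Nkx2-2, the p3 factor, had a median of 210.9 normalised reads in p3 (21.4 to 426.2, n = 15) and 0 reads in all 17 p0-1 libraries. Olig2, the pMN factor, had a median of 3025 in pMN (446.5 to 6214, n = 15). It was 649.6 in p3 (0 to 1741, n = 15) and 162.4 in p2 (0 to 1452, n = 15), so single libraries overlapped. Nkx6-1 had a median of 312.4 in p2 (134 to 702.3, n = 15) and 2.27 in p0-1 (0 to 67.5, n = 17). Pax6 was low in p3 (median 207, n = 15) and high in p0-1 (median 2789, n = 17), and the NMP libraries had 0 reads of Nkx2-2. In these bulk samples fewer expressing cells and less RNA per cell cannot be told apart.

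**Figure D1:**
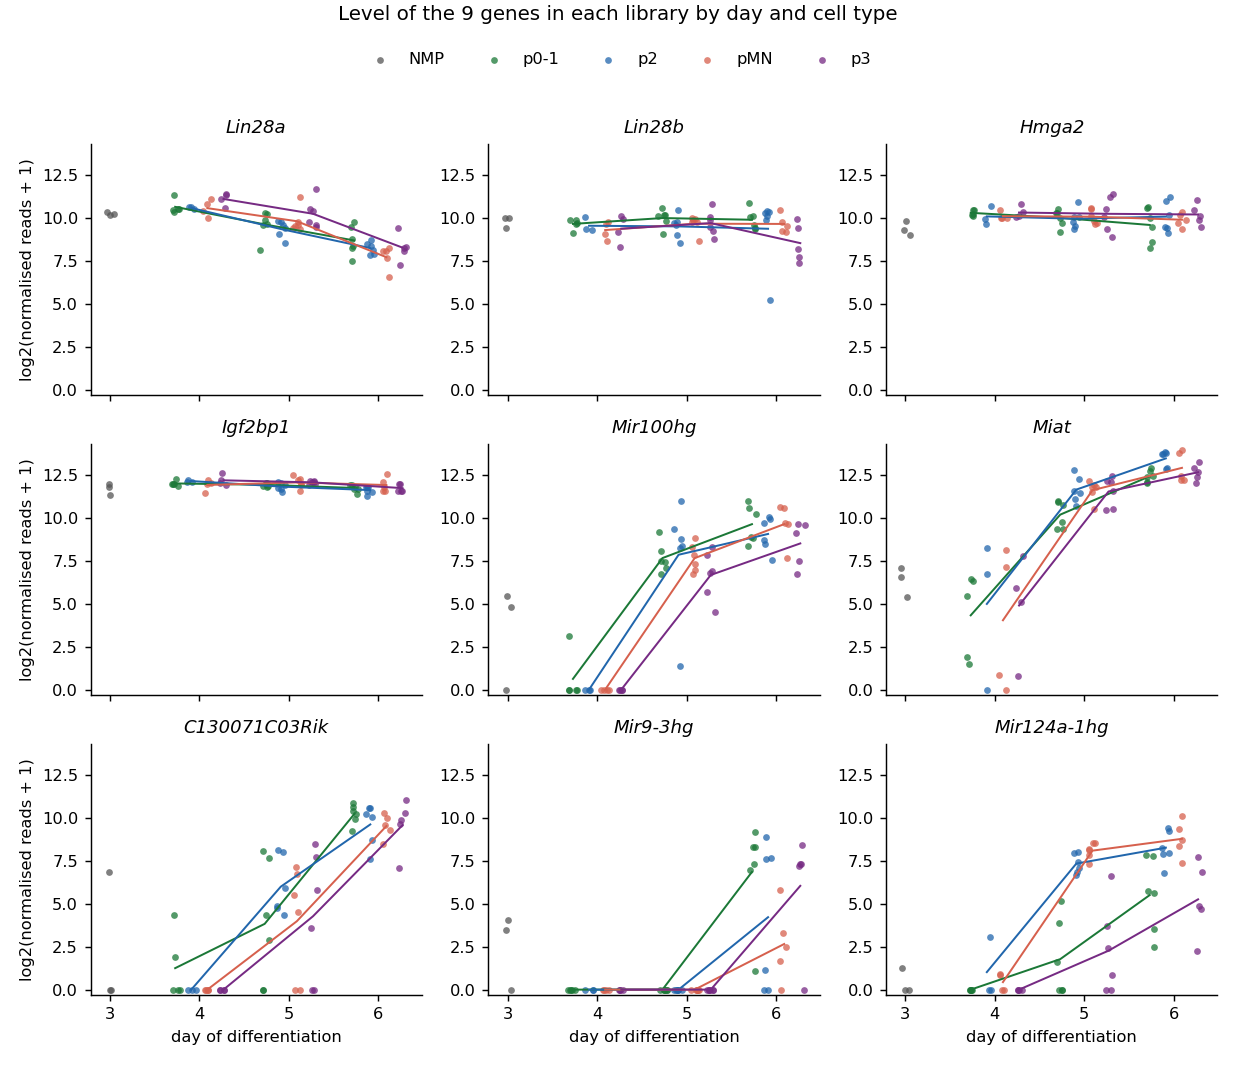
Level of each gene as log2(normalised reads + 1) by day of differentiation, with 1 point per library, coloured by cell type, and lines joining the means of each cell type. Lin28a is lower on day 6 than on day 4 in every cell type. Over all cell types together, the libraries of Lin28b, Hmga2 and Igf2bp1 overlap between days. The 5 long non-coding RNAs are low or at 0 on day 4 and higher by day 6, with Mir9-3hg at 0 on days 4 and 5 and Mir124a-1hg first in pMN and p2.

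Lin28a had the largest fall of the 4 protein-coding genes from day 4 to day 6, while the libraries of its paralog Lin28b overlapped throughout. In the 3 NMP libraries Lin28a stood at 1115, 1165 and 1296 normalised reads. It had a median of 1534 on day 4 (991.6 to 2664, n = 16), 770.5 on day 5 (279.2 to 3300, n = 24) and 296.5 on day 6 (92.3 to 868.5, n = 22). Every day 6 library was below every day 4 library, while day 5 overlapped with both. The mean of day 6 was 0.195 times that of day 4, a log2 change of -2.46 (SE 0.21) averaged over the cell types.

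Within cell types, the log2 change of Lin28a from day 4 to day 6 was -2.67 (SE 0.45) in p3, -2.92 (SE 0.42) in pMN, -2.31 (SE 0.45) in p2 and -1.93 (SE 0.38) in p0-1. These differ by less than their errors allow to separate, and whether the cell types differ was not tested. In p3 and pMN the estimate was larger between days 5 and 6, at -1.98 (SE 0.38) and -2.16 (SE 0.38), against -0.69 (SE 0.44) and -0.76 (SE 0.40) between days 4 and 5. In p2 and p0-1 the 2 steps were alike, at -1.20 (SE 0.45) then -1.11 (SE 0.36) and -0.998 (SE 0.38) then -0.93 (SE 0.36). The p3 and pMN steps include the only day 4 p3 library at 100 nM (1528) and high day 5 libraries (3300 in p3, 2377 in pMN). Medians on days 4, 5 and 6 were 2350, 1109 and 302.3 in p3 and 1551, 738.5 and 261.8 in pMN. In p2 they were 1541, 704.7 and 304.1, and in p0-1 1471, 852 and 379.2. Whether the steps differ between cell types was not tested.

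Lin28b had 677.9, 1007 and 990.6 normalised reads in the NMP libraries. Its median was 788.4 on day 4 (314.5 to 1074, n = 16), 884.1 on day 5 (368.1 to 1746, n = 24) and 810.7 on day 6 (35.3 to 1856, n = 22). The 3 days overlapped, and the log2 change from day 4 to day 6 was -0.14 (SE 0.30). On day 6 the p3 libraries had the lowest median, 289.7 normalised reads (162.4 to 969.2, n = 5), against 741.4 in pMN (n = 5), 1171 in p2 (n = 6) and 897.9 in p0-1 (n = 6).

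Per kb of exon, the order of the 2 paralogs turned over. The ratio of Lin28b to Lin28a, both in reads per kb, had a median of 0.492 on day 3 (0.392 to 0.557, n = 3), 0.259 on day 4 (0.076 to 0.567, n = 16), 0.73 on day 5 (0.0826 to 1.71, n = 24) and 1.56 on day 6 (0.0689 to 6.67, n = 22). On day 4 no library reached 1. On day 6 the median was 2.38 in p2, 2.09 in pMN and 1.21 in p0-1 but 0.681 in p3, and all 5 pMN libraries lay above 1, the lowest at 1.31.

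**Figure D2:**
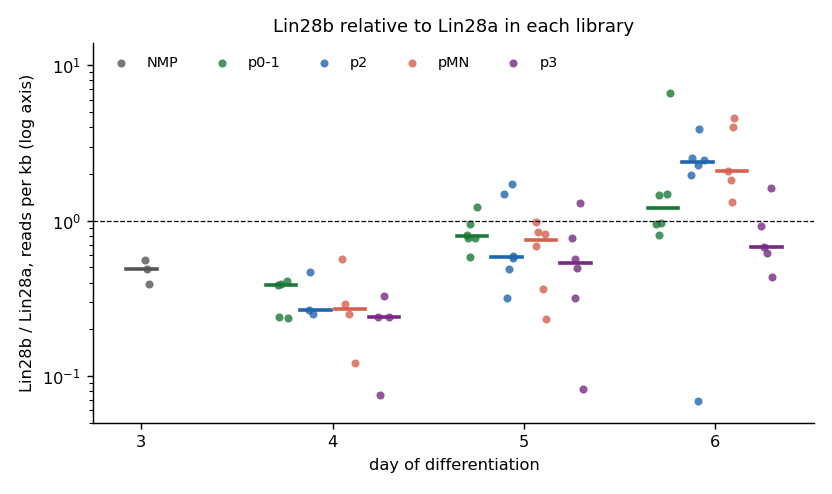
Ratio of Lin28b to Lin28a in reads per kb of exon on a log axis, with 1 point per library, coloured by cell type, horizontal bars at the median of each cell type and day and a dashed line at a ratio of 1. All day 4 libraries lie below 1, and on day 6 the medians of p0-1, p2 and pMN lie above 1 and that of p3 at 0.681.

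Hmga2 and Igf2bp1 were present throughout. Hmga2 had 610.9, 890 and 500.1 normalised reads in the NMP libraries, a median of 1120 on day 4 (804.8 to 1756, n = 16), 1043 on day 5 (474.5 to 2687, n = 24) and 982.2 on day 6 (299.8 to 2362, n = 22). Of the 16 day 4 libraries 15 lay above the highest NMP library, a log2 change of 0.91 (SE 0.42), and from day 4 to day 6 it was -0.32 (SE 0.23). Igf2bp1 had 3908, 3493 and 2564 in the NMP libraries and medians of 4088 on day 4 (2812 to 6258), 4014 on day 5 (2899 to 5800) and 3390 on day 6 (2441 to 6028). Its log2 change from day 4 to day 6 was -0.30 (SE 0.09), the smallest error of the 9 genes. Its day 6 mean was 0.723 times that of day 4 in p3, 0.7 in p2, 0.834 in p0-1 and 1.02 in pMN. In p2 the libraries of days 4 and 6 did not overlap. Per kb of exon, the medians on day 6 were 405 for Igf2bp1, 257 for Hmga2, 150 for Lin28b and 85.2 for Lin28a, an order in which all neighbours overlapped.

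The 5 long non-coding RNAs were low or at 0 on day 4 and present on day 6 in each of the 4 cell types, but at different times. The exception was Mir9-3hg in pMN, near 0 on day 6 too, with a median of 4.63 normalised reads (0 to 55, n = 5). Of the 9 genes, Mir100hg, Miat and C130071C03Rik had every day 6 library above every day 4 library, as had 0.186% of the 13964 genes that averaged 10 or more normalised reads (all 9 did), and Lin28a had every one below, as had 0.222%. The genes were selected on this contrast, so nothing is read from these counts. Leaving out any 1 library of days 4 and 6, the sparse p3 library of day 4 included, kept the log2 change from day 4 to day 6 between -2.55 and -2.37 for Lin28a, 8.78 and 9.17 for Mir100hg, 7.94 and 9.004 for Miat, 9.10 and 9.64 for C130071C03Rik, 4.62 and 5.29 for Mir9-3hg and 6.49 and 6.87 for Mir124a-1hg.

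Mir100hg, the host of miR-100, let-7a-2 and miR-125b-1, had 43, 27 and 0 normalised reads in the NMP libraries and 0 reads in 15 of 16 day 4 libraries, the other at 7.66. On day 5 its median was 200.4 (1.58 to 2003, n = 24) and on day 6 it was 781.4 (103.2 to 2000, n = 22). The larger step was thus between days 4 and 5, in all 4 cell types, with a log2 change of 7.26 (SE 0.56), followed by 1.72 (SE 0.49) from day 5 to day 6. In p3, pMN and p2 all day 4 libraries were at 0, and with 3 reads per library as the floor the day 6 means were at least 169-fold, 398-fold and 220-fold higher.

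The row of the Mir100 hairpin, which lies in an intron of Mir100hg, also held reads. It had a median of 0 on day 3 and on day 4 (0 to 60, n = 16), 32.8 normalised reads on day 5 (0 to 140.2, n = 24) and 67.2 on day 6 (0 to 253.9, n = 22). With its host it had a Pearson r of 0.809 over the 25 group means on the log2 scale, a description without a test, from the same libraries as all other values here. The 2 rows also departed. In day 4 pMN, Mir100 had 0 reads in 2 of 4 libraries and Mir100hg in all 4. In day 6 p3 the medians were 6.43 for Mir100 and 550.1 for Mir100hg. In GENCODE M21 the opposite-strand gene Gm48742 has an exon over this hairpin, and without strand their reads cannot be told apart. The Mirlet7a-2, Mir9-2 and Mir124a-1 rows had 0 reads in all libraries. The hairpins of Mir9-2 and Mir124a-1 lie wholly within host exons, and how reads over both were counted is not stated, so a 0 there may come from the counting.

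Miat reached the highest level of the 9 genes. It had 91.8, 41.6 and 131.8 normalised reads in the NMP libraries, a median of 51.2 on day 4 (0 to 296.6, n = 16), 2836 on day 5 (654 to 7046, n = 24) and 6997 on day 6 (4164 to 15940, n = 22). All day 5 and all day 6 libraries lay above all day 4 libraries. The day 6 mean was 97.9 times that of day 4, with a ratio of 86.2 in p3, 84.3 in pMN, 86.7 in p2 and 132 in p0-1. Per kb of exon its day 6 median, 799, was above those of Igf2bp1 (405) and all other 7 genes.

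C130071C03Rik and Mir9-3hg host identical miR-9 products, and were uneven or at 0 on day 5. C130071C03Rik had 0, 0 and 112.8 normalised reads in the NMP libraries and 0 reads in 14 of 16 day 4 libraries, where the highest value was 19.2. On day 5 it had a median of 26.8 (0 to 350, n = 24) and 0 reads in 6 libraries. On day 6 it was present in all 22, with a median of 1038 (131.2 to 2098). The log2 change was 4.17 (SE 0.76) from day 4 to day 5 and 5.21 (SE 0.67) from day 5 to day 6, steps that differ by less than their errors allow to order. The mean of day 5 was 63.6 times that of day 4, and the mean of day 6 was 11.7 times that of day 5.

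Mir9-3hg had 9.92, 15.8 and 0 normalised reads in the NMP libraries and 0 reads in all 16 day 4 and all 24 day 5 libraries. On day 6 it was above 0 in 18 of 22, with a median of 135.2 and a highest value of 563.8. Its day 6 mean was at least 51.9-fold above day 5, with 3 reads per library as the floor. The day 6 values were uneven between cell types. In pMN the 5 libraries had 8.78, 55, 0, 4.63 and 2.2 normalised reads and in p3 they had 156, 0, 333.4, 147.7 and 154.8, with medians of 97.7 in p2 (0 to 468.5, n = 6) and 231.5 in p0-1 (1.14 to 563.8, n = 6). Per kb of exon, C130071C03Rik (day 6 median 208) stood above Mir9-3hg (34), with overlap. From the NMP day to day 4, the lower values of Mir100hg, Miat, C130071C03Rik and Mir9-3hg rested on 3 NMP libraries that differed among themselves. The NMP libraries also had reads in more genes, a median of 15429 (14070 to 15963) against 13174 on day 4 (9718 to 14433). The part of this in the lower values was not tested.

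Marker genes of other cells moved over the same days. The summed level of 8 neuron markers (Tubb3, Dcx, Map2, Elavl3, Elavl4, Stmn2, Rbfox3 and Snap25) had a median of 1962 normalised reads on day 3 (1677 to 2205), 1196 on day 4 (563.4 to 1956), 1899 on day 5 (239.8 to 2823) and 4058 on day 6 (1852 to 7383). Not all markers followed the sum, since the mean of Stmn2 was 390.4 on day 4 and 117.9 on day 6 and that of Snap25 was 235.2 and 129.2. The summed level of 6 pluripotency markers ran from 1530 to 2385 in the NMP libraries and from 0 to 325.2 in all later ones. The 6 progenitor markers had a median sum of 2588 on day 3, 9817 on day 4 and 16810 on day 6. The 4 mesoderm markers summed to at most 267.1 and the 5 fibroblast markers to at most 778.6 in any library, with Msgn1 and Postn at 0 throughout. Their part in the values by day was not tested.

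Mir124a-1hg, the host of Mir124a-1, was the gene of the 9 that separated the cell types. It had 0, 0 and 1.36 normalised reads in the NMP libraries and at most 7.32 on day 4, with 0 reads in 13 of 16 libraries. On day 5 the 6 pMN libraries had a median of 281 (155.7 to 374.9) and the 6 p2 libraries 153.1 (101.6 to 259.4). The 6 p3 libraries had a median of 2.6 (0 to 95.4) and the 6 p0-1 libraries 1.02 (0 to 34.8). All pMN and p2 libraries of day 5 thus lay above all p3 and p0-1 libraries, an order that 1 of 13964 genes (0.00716%) had, Mir124a-1hg itself, and that was looked for after its values were seen.

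On day 6 Mir124a-1hg was again highest in pMN and p2, now with overlap. The 5 pMN libraries had 329.8, 164.1, 1100, 414.7 and 637.3 normalised reads and the 6 p2 libraries a median of 276.9 (107.1 to 685). The 5 p3 libraries had 205.1, 3.72, 24.3, 112.6 and 27.7 and the 6 p0-1 libraries a median of 50.4 (4.6 to 228.2). In pMN and p2 the earlier step was the larger, with log2 changes of 7.65 (SE 1.08) and 6.57 (SE 1.23) from day 4 to day 5 and 0.73 (SE 1.02) and 0.93 (SE 0.96) from day 5 to day 6. In p3 the 2 steps, 2.26 (SE 1.18) and 3.08 (SE 1.02), and in p0-1, 1.77 (SE 1.02) and 3.73 (SE 0.96), were closer to each other, and which was larger was not tested.

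Over days 5 and 6, limma with Benjamini-Hochberg adjustment over 13964 genes called 4 of the 54 member-by-pair differences at an adjusted p under 0.01 and more than 2-fold, all of Mir124a-1hg. Between p3 and pMN its log2 change was -4.64 (SE 0.72, adjusted p = 3.22e-05), a pair in which 0.695% of genes were called, and 11 of 11 p3 libraries lay below the pMN median. Against p2 the change of p3 was -3.99 (SE 0.70, adjusted p = 0.000221; 1.27% called), again with 11 of 11 libraries below the p2 median. It was higher in pMN than in p0-1 by 4.81 (SE 0.70, adjusted p = 5.48e-06; 0.96% called) and in p2 than in p0-1 by 4.16 (SE 0.68, adjusted p = 0.000143; 0.322% called), above the p0-1 median in 11 of 11 and 12 of 12 libraries. The p2 to p0-1 call was lost in limma on the compared libraries alone (adjusted p = 0.0101) and in edgeR (adjusted p = 0.0442).

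Between p3 and p0-1 the log2 change of Mir124a-1hg was 0.17 (95% interval -1.24 to 1.58; 1.43% of genes called) and between pMN and p2 it was 0.65 (95% interval -0.76 to 2.07; 0.107% called), neither of them called. At matched concentrations the order was the same. At 100 nM SAG the mean log2(normalised reads + 1) over days 5 and 6 was 2.58 in p3, 8.24 in pMN and 7.39 in p2 (n = 6 each), at 500 nM it was 4.88 in p3 and 8.59 in pMN (n = 5 each), and at 10 nM it was 8.2 in p2 and 4.32 in p0-1 (n = 6 each). The p0-1 and p3 or pMN cells share no concentration, so for those pairs cell type and SAG cannot be told apart.

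The summed level of the neuron markers on day 5 had a median of 2168 normalised reads in p3, 1997 in pMN, 1727 in p2 and 517.9 in p0-1, and on day 6 of 4166 in p3, 4297 in pMN, 4383 in p2 and 2370 in p0-1. Single markers differed from the sum. Of the 8, 4 on day 5 (Elavl3, Stmn2, Rbfox3 and Snap25) and 2 on day 6 (Elavl3 and Rbfox3) had medians in pMN and p2 above those in p3 and p0-1, as Mir124a-1hg had. Elavl3 had medians of 271.9 in pMN, 287.1 in p2, 135.5 in p3 and 41.4 in p0-1 on day 5. The p3 sum held much Map2, with a median of 521.2 in p3 against 44 in pMN on day 5 and 1000 against 30.9 on day 6. The part of neurons in the differences of Mir124a-1hg was not tested. Mir124-2hg, the host of another miR-124 hairpin, was present in all 4 cell types on day 5, with medians of 248.9 in p3, 392.2 in pMN, 633.7 in p2 and 469.4 in p0-1, and on day 6 of 336.3, 643.9, 779.8 and 642.3.

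**Figure D3:**
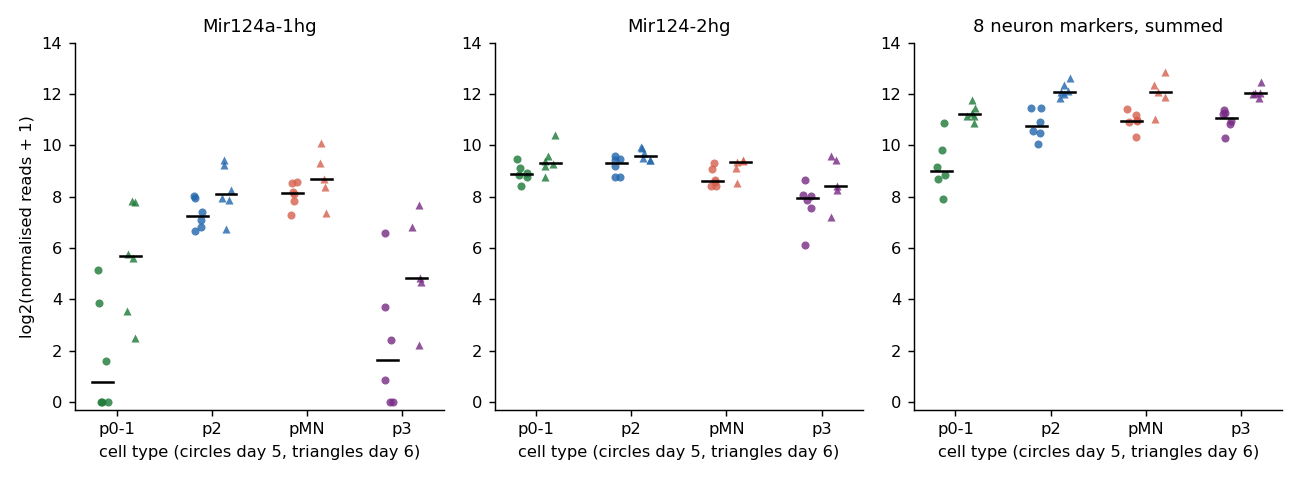
Level of Mir124a-1hg, of Mir124-2hg and of 8 neuron markers summed, as log2(normalised reads + 1), by cell type on day 5 (circles) and day 6 (triangles), with 1 point per library and black bars at the medians. Mir124a-1hg is high in pMN and p2 and low in p3 and p0-1, while the medians of Mir124-2hg and of the marker sum lie closer together.

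For the other 8 genes none of the 48 differences between cell types was called. The largest were of Mir9-3hg, with a log2 change of -2.14 (SE 0.92, adjusted p = 0.315 in limma) between pMN and p0-1 and 1.84 (SE 0.95, adjusted p = 0.467) between p3 and pMN. Mir9-3hg had 0 reads in every day 5 library, so the day 5 part of its differences was fixed at 0. On day 6 alone its mean log2 difference was -4.19 between pMN and p0-1 and 3.38 between p3 and pMN. Day 6 alone was not tested. Miat was higher in p2 than in p0-1 by 1.25 (SE 0.64, adjusted p = 0.627, 95% interval -0.04 to 2.53), a difference that limma on the compared libraries alone did call (adjusted p = 9.78e-05). Lin28b had a log2 change of -0.82 (SE 0.37, adjusted p = 0.245) in p3 against p0-1. Igf2bp1 had the narrowest errors, with changes between -0.11 and 0.29.

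**Figure D4:**
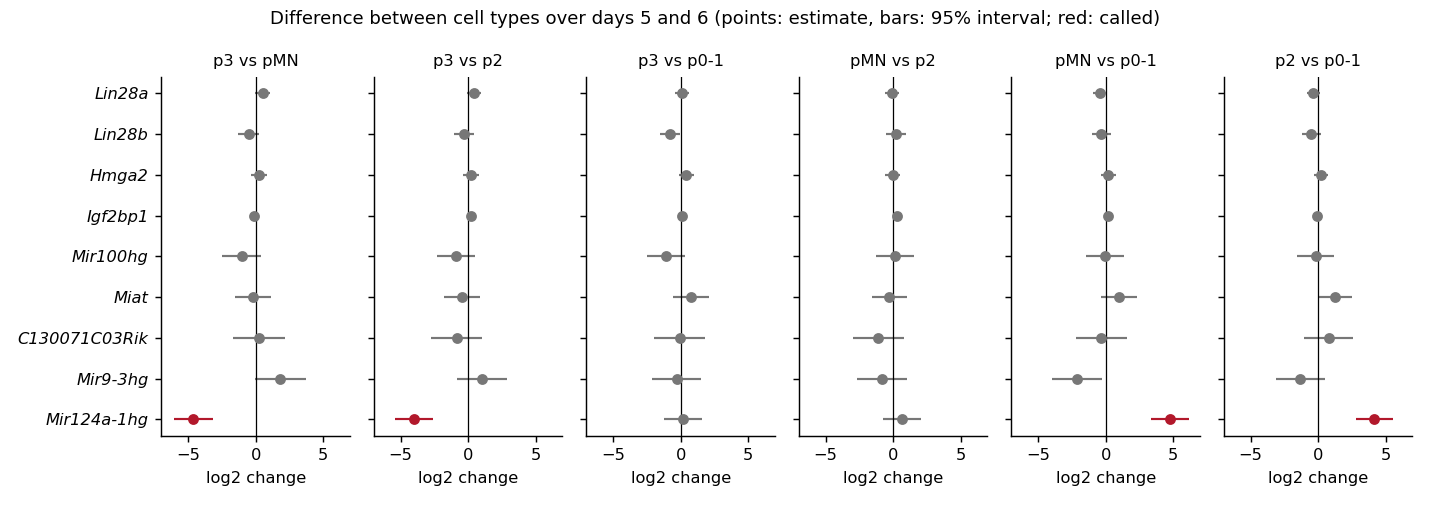
Log2 difference of each of the 9 genes between 6 pairs of cell types over days 5 and 6, the first named minus the second, with points at the limma estimate and bars for the 95% interval, red where called. The 4 red points are all Mir124a-1hg, in the pairs that set pMN or p2 against p3 or p0-1.

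The next comparison asked whether the genes responded to the agonist within a cell type. None of the 36 differences was called by limma over days 5 and 6, and 4 of the 36 had an unadjusted p under 0.05. No alternative, edgeR and DESeq2 among them, called any. The share of all genes called was 0.0286% between 500 and 100 nM in p3, 0.0% between 500 and 100 nM in pMN, where 657 genes had an unadjusted p under 0.05, 0.0358% between 100 and 10 nM in p2 and 0.0143% between 10 and 0 nM in p0-1. The 95% intervals of low genes were wide.

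Mir124a-1hg in p3 had a median of 2.27 normalised reads at 100 nM (0 to 205.1, n = 6) and 27.7 at 500 nM (4.38 to 112.6, n = 5), a log2 change of 2.46 (95% interval 0.41 to 4.52, adjusted p = 0.341 in limma). Igf2bp1 in pMN had 0.39 (95% interval 0.07 to 0.71, adjusted p = 0.992) and Mir100hg in p2 -1.97 (95% interval -3.90 to -0.04, adjusted p = 0.601). C130071C03Rik in p0-1 had 2.97 between 10 and 0 nM (95% interval 0.37 to 5.58, adjusted p = 0.969), with 0 reads in 2 of 6 libraries without SAG. These are the 4 with an unadjusted p under 0.05.

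Other genes of these pathways were taken from 5 lists, and their change by day was tested with limma on all genes. The lists were drawn up with earlier results of these data known, so their shares are not independent evidence of a difference from other genes. From day 3 to day 4, 4 of 59 list genes rose and 1 fell, 8.47% against 3.49% of all genes, whose median change was -0.40. The median number of genes with reads was 15429 on day 3 and 13174 on day 4, and its part in these changes was not tested. From day 4 to day 6, 7 rose and 2 fell, 15.3% against 8.87% of all genes, whose median change was 0.02.

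Of the 13 tested genes of the let-7 pathway (partners, targets and terminal uridylyltransferases), 1 rose and none fell from day 3 to day 4, with a median log2 change of 0.24. Igf2bp3, a paralog of Igf2bp1, rose by 1.22 (SE 0.20, adjusted p = 1.35e-05 in limma), from 1182, 1550 and 1868 normalised reads in the NMP libraries to a median of 3672 on day 4. From day 4 to day 6, 1 rose and 1 fell, with a median of -0.77. Igf2, the growth factor whose mRNA the IGF2BP proteins bind, changed by -2.17 (SE 0.44, adjusted p = 0.000202), from a median of 453.5 (260.6 to 1072) to 173.9 (0 to 331). Tut7, which uridylates let-7 precursors, rose by 1.11 (SE 0.30, adjusted p = 0.00555), but by 0.59 (adjusted p = 0.188) without the sparse p3 library of day 4, which had 17.6 normalised reads. Its call was also lost without p0-1 at 0 nM replicate 2, pMN at 100 nM replicate 2 or pMN at 500 nM replicate 3 of day 4 and p3 at 100 nM replicate 3 or pMN at 500 nM replicate 3 of day 6, with log2 changes of 1.00 to 1.06. Quantile normalisation also lost it (0.73, adjusted p = 0.0478). The other 11 were not called. Of these, Trim71 (-0.77, adjusted p = 1.11e-08 in limma), Nr6a1 (-0.83, adjusted p = 6.68e-05) and Igf2bp3 (-0.56, adjusted p = 8.01e-05) missed only the 2-fold threshold.

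Of 13 genes of the microRNA machinery none was called from day 3 to day 4 and 1 from day 4 to day 6. Ago1, which encodes an Argonaute protein that carries microRNAs, rose by a log2 change of 1.90 (SE 0.21, adjusted p = 6.75e-10 in limma), from a median of 580.2 normalised reads (2.93 to 896.5, n = 16) to 1219 (571.8 to 2424, n = 22). Without the sparse day 4 p3 library, the one at 2.93, it was 1.00 (adjusted p = 0.000323). The median of this list was 0.35 over the same days. Tarbp2 (0.98, adjusted p = 0.000421 in limma), Tnrc6a (0.65, adjusted p = 0.00153) and Tnrc6b (0.60, adjusted p = 0.0047) missed only the 2-fold threshold.

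Among 17 other microRNA hosts, Mir99ahg, the host of miR-99a, let-7c and miR-125b-2 and thus the counterpart of Mir100hg on another chromosome, rose from day 4 to day 6 by 9.15 (SE 0.60, adjusted p = 8.88e-17 in limma). It had 0 reads in all NMP libraries and a median of 0 on day 4 (0 to 95.2), 167 on day 5 (0 to 947.8) and 876.8 on day 6 (127.6 to 2971). Its day 5 and day 6 medians lay beside those of Mir100hg (200.4 and 781.4), and the 2 hosts had a Pearson r of 0.929 over the 25 group means on the log2 scale. Mir124-2hg rose earlier than Mir124a-1hg, by 6.82 (SE 0.44, adjusted p = 2.88e-17) from day 3 to day 4, when its median was 171.7 normalised reads (71.2 to 428), and by 1.50 (SE 0.24, adjusted p = 3.66e-06) from day 4 to day 6. Meg3, an imprinted host of a large microRNA cluster, fell from day 3 to day 4, with a log2 change of -2.58 (SE 0.29, adjusted p = 2.38e-09), from 11020 to 14570 normalised reads to 1182 to 4050. In this list 1 gene rose and 1 fell over the first step and 2 rose over the second, with medians of 0.44 and 0.02. Mcm7 missed only the 2-fold threshold over the first step (0.94, adjusted p = 4.64e-05 in limma).

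Of 9 tested neural long non-coding RNAs, which again include Meg3 (Dlx6os1 and Six3os1 averaged under 10 reads), 1 rose and 1 fell from day 3 to day 4 and 2 rose and 1 fell from day 4 to day 6, with medians of -0.92 and 0.60. Sox2ot, which overlaps Sox2, rose by 5.37 (SE 0.90, adjusted p = 2.62e-05 in limma, 0.0388 on the compared libraries alone) and then by 3.36 (SE 0.49, adjusted p = 6.89e-07). Pantr1, next to Pou3f3, rose by 5.43 (SE 0.69, adjusted p = 3.82e-08) from day 4 to day 6, and Snhg11 changed by -1.65 (SE 0.35, adjusted p = 0.000387). Malat1 missed only the 2-fold threshold over both steps (-0.71, adjusted p = 0.00257 in limma, then 0.60, adjusted p = 7.67e-07). So did Tug1 over the second (0.79, adjusted p = 0.00018). Of 10 tested targets of miR-9 and miR-124 (Nr2e1 averaged under 10 reads), 1 rose over each step, Sox9, a factor of gliogenesis, with 3.64 (SE 0.66, adjusted p = 9.81e-05) and 1.44 (SE 0.36, adjusted p = 0.00212). The first of these was not called without NMP replicate 3 (2.67, adjusted p = 0.0243) or in edgeR (adjusted p = 0.0204). The medians of this list were 0.32 and -0.14. Its members Ptbp1, the splicing repressor that miR-124 targets, and Rest were not called. From day 4 to day 6 Ptbp1 changed by -0.82 (SE 0.19, adjusted p = 0.00138 in limma), short of the 2-fold threshold only.

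**Figure D5:**
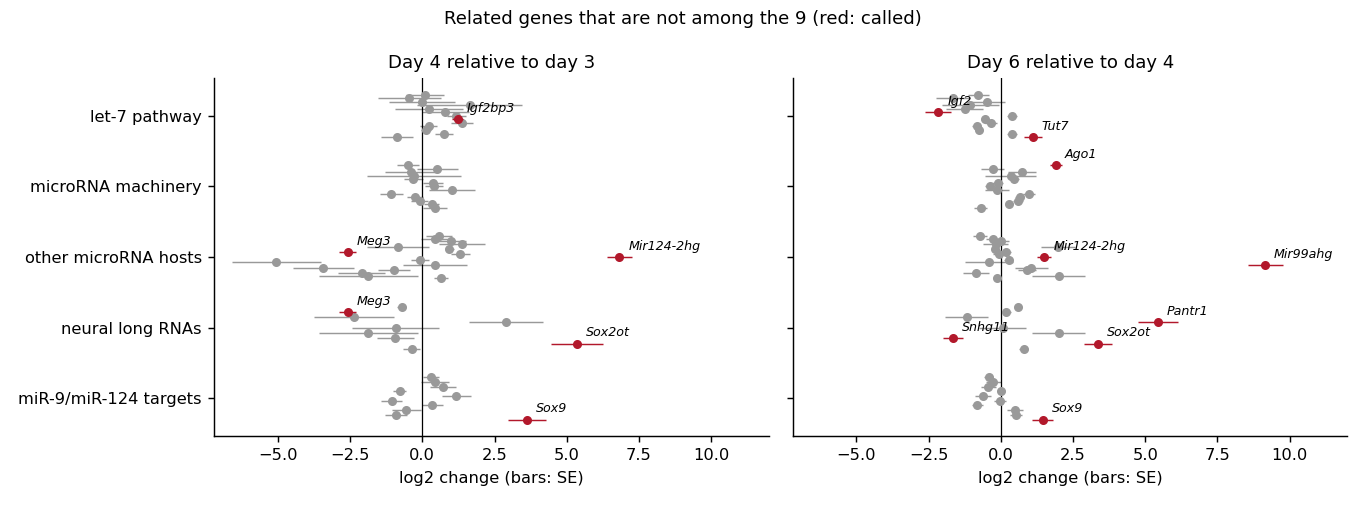
Log2 change of 59 related genes from day 3 to day 4 and from day 4 to day 6, by list, with points at the limma estimate and bars for its SE, red and named where called. Mir124-2hg and Sox2ot lead the first step and Mir99ahg and Pantr1 the second.

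The genes most alike in pattern were taken as those with the highest Pearson r over the 25 group means on the log2 scale, among genes with a mean of at least 100 normalised reads. For Lin28a they were Myl12a (r = 0.919) and Lyar (0.908), for Miat Pdpn (0.932) and Mir100hg (0.93), and for Mir100hg Chrnb4 (0.945) and Hk3 (0.934). C130071C03Rik was most like Kif5c (0.91) and Cyp26b1 (0.885), Mir9-3hg like Cdh11 (0.803) and C130071C03Rik (0.783), and Mir124a-1hg like Srrm4 (0.945) and Glra1 (0.889). The genes without a marked pattern had lower values, Lin28b with Spsb3 (0.75) and Ddias (0.715), Hmga2 with Pkig (0.694) and Celsr1 (0.69) and Igf2bp1 with Elp3 (0.732) and Lrig3 (0.732). Groups share days, cell types and concentrations, so these values order the genes and carry no test. Over the 65 single libraries Mir100hg for Miat and Glra1 for Mir124a-1hg were the pairs that stayed among the 2 most alike.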

How the data were processed

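RNA was sequenced from fixed, sorted cells (SMART-Seq HT and Nextera XT libraries). The authors aligned reads to mm10 with STAR through nf-core rnaseq and counted them over refGene genes with featureCounts, ignoring duplicates. Libraries that failed their quality control had been removed. The deposited signal is gene read counts divided by 1 size factor per library. Of 834400 values above 0, 100% were whole multiples, within 0.01 reads, of the value of 1 read, so reads were recovered for edgeR and DESeq2. The deposited annotation gives other values, feature starts and ends on mm10. The paper gives its accessibility replicates as independent differentiations and calls the RNA samples paired. Whether each RNA replicate came from a separate differentiation is not stated. The p-values measure the spread between replicates, which may be technical.

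The 9 genes and the 5 lists were chosen with earlier results of these data known. Genes with a mean of at least 10 normalised reads (13964) were fitted with limma 3.58.1 (R 4.3.3, empirical Bayes with trend) on log2(value + 1), with 1 mean for each of 25 groups. Fold changes are differences of means on that scale. Adding 1 shrinks those of low genes, while libraries near 0 can make them larger than a ratio of means. For Miat from day 4 to day 6 the log2 change was 8.46, and the ratio of means was 97.9. Cell types were compared over days 5 and 6 with equal weight for each group, as were concentrations within a type. The 2 groups of day 4 with 1 library borrowed the spread of the others. Calls needed a Benjamini-Hochberg adjusted p under 0.01 and more than 2-fold, so a gene not called can still have an adjusted p under 0.01. Alternatives were a pseudocount of 10, other filters, quantile normalisation, a replicate block, the compared libraries alone, edgeR 4.0.16, DESeq2 1.42.0 and leaving out each library. The fit was tested on simulated data for p3 against p2, with changes given to genes that averaged at least 100 normalised reads. It called 55 of 100 genes at a log2 change of 2, 86 of 100 at 3 and 1 of 13764 unchanged genes. A difference that was not called can therefore still be present.

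The text names all 9 genes. From each list it names up to 4 called genes per direction and step, those with the largest changes and a mean of at least 100 normalised reads in a compared group, and for each of the 9 it names the 2 genes most alike. Rest, Mir100, overlapping genes, the markers and the list genes that missed only the 2-fold threshold are named beside that rule.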

Additional observations from a re-analysis of the deposited data

Results flagged for a closer look

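Dixon's test marked 15 values, in 13 libraries, as far from the others of their cell type and day, over 86 sets of 4 to 6 libraries with unequal values. Chance alone marks about 1 in 20 sets. For Lin28a the highest library was p0-1 at 10 nM replicate 1 on day 4 (2520 normalised reads, next 1474), p3 at 100 nM replicate 3 on day 5 (3300, next 1438) and pMN at 500 nM replicate 3 on day 5 (2377, next 862.2). For Lin28b the lowest was pMN at 500 nM replicate 2 on day 5 (401.8, next 853.7) and p2 at 100 nM replicate 3 on day 6 (35.3, next 911.8), and the highest p0-1 at 10 nM replicate 2 on day 6 (1856, next 1086). For Hmga2 the highest was pMN at 500 nM replicate 3 on day 4 (1372, next 1024) and p2 at 10 nM replicate 3 on day 5 (1957, next 1051), and for Igf2bp1 p0-1 at 10 nM replicate 1 on day 4 (4948, next 3958).

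Among the long non-coding RNAs, Mir100hg was highest in p0-1 at 0 nM replicate 2 on day 4 (7.66, next 0), p0-1 at 0 nM replicate 3 on day 5 (577.7, next 261.8) and p2 at 10 nM replicate 3 on day 5 (2003, next 634.5). C130071C03Rik was highest in p0-1 at 0 nM replicate 3 on day 4 (19.2, next 2.76), Mir9-3hg in pMN at 100 nM replicate 2 on day 6 (55, next 8.78) and Mir124a-1hg in p3 at 500 nM replicate 2 on day 5 (95.4, next 12). The last is the p3 library nearest to the lowest p2 library of that day (101.6).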

How the results depend on the processing

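The count of calls of the 9 genes between cell types was 4 under all alternatives but edgeR (3), and with the compared libraries alone the p2 to p0-1 call of Mir124a-1hg was replaced by one of Miat. The SAG count was 0 throughout. The list count from day 3 to day 4 (5) was 8 with a pseudocount of 10, 8 with quantile normalisation and 11 with DESeq2, and that from day 4 to day 6 (9) was 14 with DESeq2. From day 3 to day 4, the log2 change of Mir100hg (-3.23) was -1.38 with a pseudocount of 10, -0.95 with quantile normalisation and -4.94 to -2.21 leaving out 1 library each, that of Miat (-1.94) 0.0525 and of Mir9-3hg (-2.51) 0.21 with quantile normalisation, and that of C130071C03Rik (-1.93) -3.06 to 0.35 leaving out 1 library each, the highest without NMP replicate 3. From day 4 to day 6 a pseudocount of 10 gave 5.83 for Mir100hg, 6.31 for C130071C03Rik, 2.68 for Mir9-3hg and 3.85 for Mir124a-1hg, a shrinkage the pseudocount itself makes on low values. Of the 18 most alike genes 2 were shared over the 65 single libraries. The cause of the other shifts was not tested.

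For accessibility the paper describes cell types of 1 condition as coming from a shared dish, and its RNA samples were collected in that way too. No label says that a replicate number marks a dish. Same-numbered libraries of 1 day had a median r of their deviations of 0.0334 over 186 pairs, 3 above 0.1, against -0.0189 over 358 pairs of other numbers. At the same concentration too it was 0.0315 over 33 pairs, 1 above 0.1, against -0.0226 over 62. The numbers were therefore not used as pairs, and whether they mark shared dishes was not settled. A replicate block kept 4 calls of the 9 genes and moved the count of all genes from 15 to 26 between pMN and p2 and from 4 to 0 between 500 and 100 nM in p3. Counts over all genes depended on the tool. DESeq2 called 782, 986, 887, 587, 749 and 632 genes in the 6 pairs of cell types in the order of the report, 665, 442, 645 and 424 between concentrations, and 1067 and 2902 between days, against 97, 178, 199, 15, 134, 45, 4, 0, 5, 2, 488 and 1239 in limma. With edgeR the pairs p3 to pMN, p3 to p0-1, pMN to p2 and p2 to p0-1 had 51, 130, 5 and 23, and with the compared libraries alone p3 to pMN, p3 to p2, p3 to p0-1 and p2 to p0-1 had 47, 77, 109 and 24. Leaving out 1 library gave 5 to 31 between pMN and p2, 0 to 43 between 500 and 100 nM in p3, 0 to 32 in pMN, 2 to 60 between 100 and 10 nM in p2 and 270 to 515 from day 3 to day 4. Genes with few reads had the widest intervals, so smaller differences in Mir9-3hg, C130071C03Rik or Mir124a-1hg were not detectable at this depth and spread.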
